A study of Mus musculus with 6 samples.

Results

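Caspases are cysteine proteases that cells keep as inactive precursors, and they cut their substrates after aspartate residues once adaptor complexes bring the precursors together. In the intrinsic pathway of apoptosis, cytochrome c released from mitochondria drives Apaf1 into the apoptosome, a wheel-shaped complex that activates Casp9. Cradd, also called RAIDD, links the DNA damage sensor Pidd1 to Casp2 in the PIDDosome, and Casp8 acts below death receptors. Casp1 and Casp4 belong to the inflammatory branch, in which they process cytokines and cut gasdermin D, and Casp6 is grouped with the effector caspases. The 8 genes described here were chosen by symbol, Casp1, Casp2, Casp4, Casp6, Casp8, Casp9, Apaf1 and Cradd, and each had 1 of the 54532 rows of the count table.

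RNA sequencing compared cells of the mouse line 32D, myeloblast-like cells kept in medium with interleukin-3, after transduction with a retrovirus that carried human U2AF1 and GFP. U2AF1 is the splicing factor that recognises the end of an intron. In one group of 3 libraries (S34F) the construct held the S34F substitution, and in the other group of 3 libraries (WT) it held the wild-type protein, so both groups express a human construct beside their own U2af1 and neither is untransduced. Neither clones nor cultures are named in the labels, so the p-values rest on the spread between these libraries alone, which may be technical. The title of the series asks about oxidative stress and DNA repair, and no caspase is named in the labels.

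Libraries held between 16509899 and 19129250 gene counts. Levels are given as CPM, the count scaled to the size of the library. By library totals alone, 1 count was worth 0.0523 to 0.0606 CPM. WT replicates 2 and 3 stood out as nearly alike, with a coefficient of variation of 3.16% beyond counting noise, against 16.5% to 29.4% in the other pairs, so calls were also made with both summed into 1 library. Interleukin-3 receptor genes were well expressed (Csf2rb at 570.4 to 831 CPM), while Kit, Cd34 and Elane, which mark earlier or granule-forming myeloid cells, lay at 0.487 CPM or less in every library. Other granule protein genes were expressed, with Ctsg at 186 to 395 CPM, Prtn3 at 22.3 to 51.7 CPM and Mpo at 2.99 to 15.8 CPM. The 12 myeloid progenitor markers summed to 2382 to 2954 CPM in S34F and 2109.9 to 2433 CPM in WT. Spi1 alone of 9 tested was called, at the edge of the threshold of 0.05 (log2 fold change 0.60, edgeR adjusted p = 0.0491), where 2.18% of all genes tested were called. The summed level of 8 T and NK cell markers was 0.597 to 0.676 CPM in S34F and 1.14 to 1.59 CPM in WT, and Cd3e, Cd3g and Ncr1 had no counts. Summed levels of 6 B cell markers were 0.0597 to 0.780 CPM in S34F and 0.487 to 1.41 CPM in WT, with Ms4a1 and Ebf1 among those at 0 counts. Summed levels of 6 erythroid markers were 0.169 to 1.35 CPM in S34F and 0.304 to 0.649 CPM in WT. For 6 fibroblast markers they were 5.25 to 20.7 CPM in S34F and 8.82 to 14.2 CPM in WT, with Col3a1, Pdgfra and Dcn at 0 counts.

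The feature that the 6 caspases share is the pentapeptide around the catalytic cysteine, whose codons are shown here because they encode the active site and show how alike the members are there. The stretches are taken from the longest annotated coding sequence of each gene (GENCODE M21, mm10), 5′ to 3′, with the 15 bases of the pentapeptide in capitals. The catalytic cysteine codon is number 320 in Casp2, 325 in Casp9, 382 in Casp8, 284 in Casp1, 254 in Casp4 and 146 in Casp6.
Casp2: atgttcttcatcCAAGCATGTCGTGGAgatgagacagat
Casp9: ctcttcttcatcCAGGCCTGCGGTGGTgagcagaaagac
Casp8: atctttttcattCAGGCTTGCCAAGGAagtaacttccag
Casp1: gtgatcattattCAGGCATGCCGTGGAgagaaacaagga
Casp4: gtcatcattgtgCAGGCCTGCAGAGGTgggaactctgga
Casp6: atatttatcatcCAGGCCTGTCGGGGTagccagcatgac

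Each of the 6 coding sequences held 1 match in frame, on the sense strand, to a run of 5 codons. In that run the first is CAN, the second GCN, the third TGN, the fourth any codon and the fifth GGN, with N for any base. Of 21482 mouse coding sequences searched in the same way, 0.698% held at least 1 match. Against the 15 bases of Casp2, those of Casp1 differed at 2, those of Casp6 at 4, those of Casp8 and of Casp9 at 5, and those of Casp4 at 6. Even the closest stretches therefore differ in sequence, and no run of 50 bases of Casp1 or Casp2 transcripts occurred in a transcript of another gene. Shared runs made up 4.37% of the runs of Casp8, all with the predicted gene Gm20257, 2.12% of Cradd, and less than 1% of Casp4, Casp6, Casp9 and Apaf1. Overlapping exons were found on the opposite strand of Casp9 (Cela2a and Ctrc, 1.81% of its exon bases) and of Cradd (Gm48882, 3.13%), and these 3 genes had at most 0.299 CPM in any library.

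Of the 8 genes, 7 had enough counts to be tested, and 1 of them, Casp2, fell in S34F cells. Over all 13444 genes tested, 0.595% were called lower, 1.58% higher and 2.18% in either direction, by edgeR's quasi-likelihood test at an adjusted p under 0.05 (Benjamini-Hochberg). The median log2 fold change of the 7 was -0.21, against 0.00 over all tested genes, and all 7 values were below 0, as were 49.9% of all genes. In 3 of the 7, namely Casp2, Casp1 and Casp8, the S34F libraries all lay below the WT libraries, as did 13.1% of all genes tested, while 27.1% were separate in either direction. In bulk RNA, fewer cells that express a gene and less of its RNA per cell cannot be told apart. An unadjusted p under 0.05 was reached by the same 3 genes, with 10.1% of all genes reaching it in this direction.

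**Figure D1:**
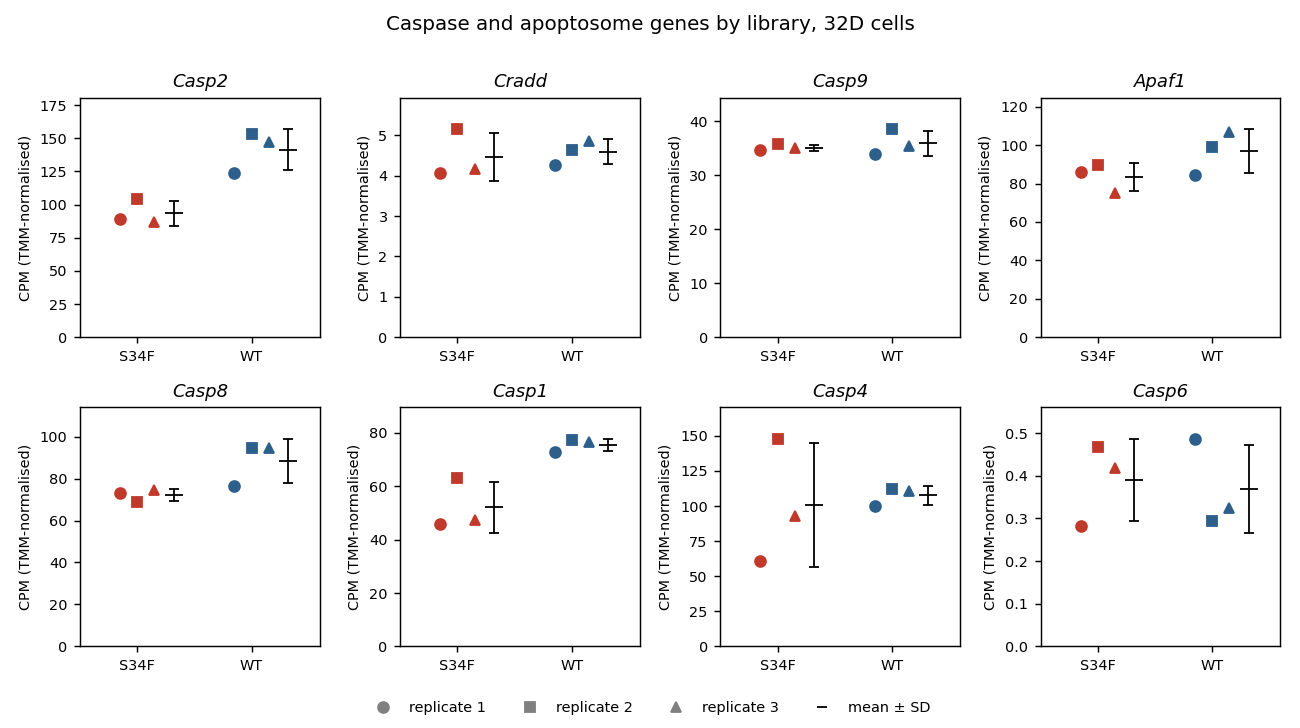
TMM-normalised CPM of the 8 genes in each library, S34F left and WT right, with 1 symbol per replicate and black bars for mean ± SD (n = 3 per group), each panel on its own axis from 0. Casp2, Casp1 and Casp8 have all S34F libraries below all WT libraries, Casp4 is spread from 60.7 to 148 CPM within S34F, and Casp6 stays under 0.5 CPM.

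Casp2 (ENSMUSG00000029863, chromosome 6, 42264985 to 42282508, plus strand, mm10) encodes the most conserved caspase, an initiator linked to responses to DNA damage and to extra centrosomes. Its level was 89.2, 104 and 86.9 CPM in the S34F libraries, in replicate order, against 124, 153 and 147 CPM in the WT libraries. The highest S34F library thus lay below the lowest WT library, WT replicate 1, and the gap between them was about as wide as the spread within S34F. Casp2 averaged 93.4 ± 9.31 CPM in S34F and 142 ± 15.5 CPM in WT (SD, n = 3 per group), a 1.52-fold fall with a 95% interval of 1.24 to 1.85, and a log2 fold change of -0.60 ± 0.13 (SE, edgeR adjusted p = 0.0499). The value stood at the edge of the threshold.

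The fall of Casp2 kept its size when libraries were left out or combined, but its call depended on which libraries these were. With WT replicates 2 and 3 summed the log2 fold change was -0.56 (edgeR adjusted p = 0.221). Leaving out S34F replicate 1 gave -0.58 (adjusted p = 0.163), and leaving out S34F replicate 3 gave -0.55 (adjusted p = 0.143). Among the WT libraries, removal of replicate 2 gave -0.54 (adjusted p = 0.228) and removal of replicate 3 gave -0.57 (adjusted p = 0.218). The call was kept when S34F replicate 2 or WT replicate 1 was left out, both at -0.68 (adjusted p = 0.0475 and 0.0200). Removal of the trend of each library with GC content gave -0.57 (adjusted p = 0.0606), library totals without TMM -0.63 (adjusted p = 0.0608) and limma-voom -0.60 (adjusted p = 0.0533). DESeq2 gave -0.60 and kept the call (adjusted p = 0.00154). It was also kept with RLE factors and a filter at 1 CPM, at the edge (adjusted p = 0.0496 and 0.0488), and with no count filter (adjusted p = 0.00617). The share of all genes called moved as well. It was 0.145% with the WT pair summed, 0.145%, 2.46% and 0.362% with S34F replicates 1, 2 and 3 left out in turn, and 8.51%, 0.138% and 0.160% with WT replicates 1, 2 and 3 left out in turn. It was 1.18% with the GC trend removed, 1.70% with library totals, 2.13% with RLE factors, 2.02% in limma-voom, 9.04% in DESeq2, 3.12% with no count filter and 2.32% with a filter at 1 CPM. The plot of Casp2 under each alternative shows values that stay close together on the fold axis and spread across the threshold on the p axis.

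**Figure D2:**
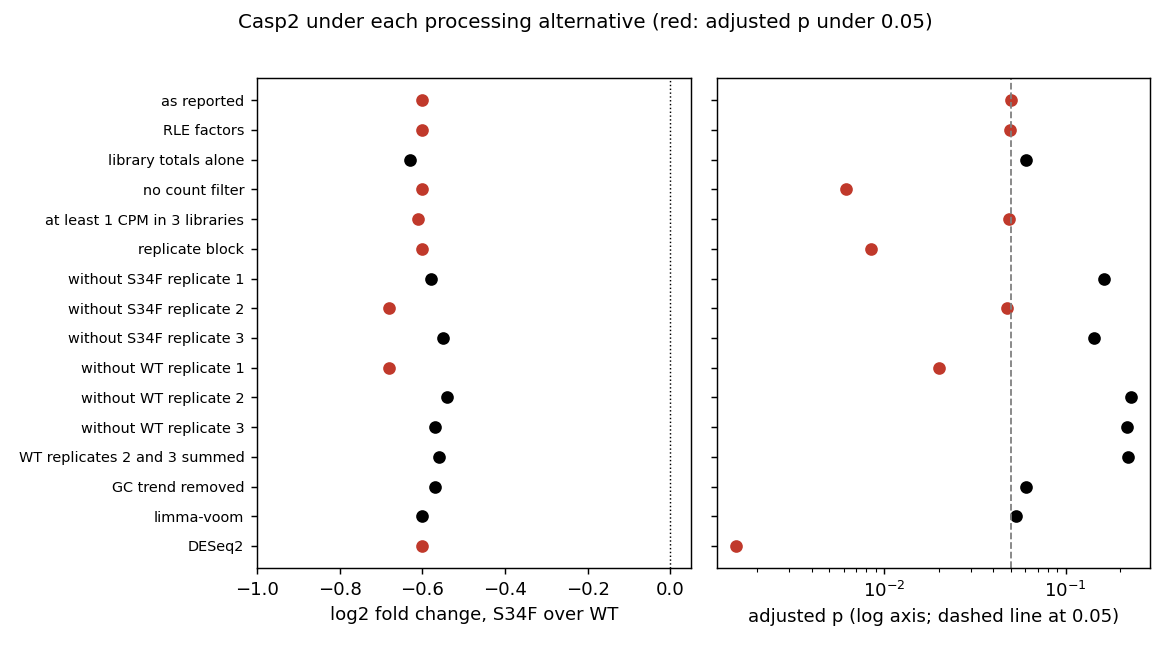
Casp2 under 15 processing alternatives and as reported: the left panel gives the log2 fold change of S34F over WT and the right panel the adjusted p on a log axis, with a dashed line at 0.05 and red points under it. The fold change lies between -0.68 and -0.54 in every row, while 8 of the 15 alternatives leave the adjusted p above 0.05.

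The summed level of macrophage markers was higher in each S34F library than in any WT library, opposite to Casp2. The 8 markers summed to 304, 361 and 263 CPM in S34F and 236, 244 and 237 CPM in WT, most of it from Adgre1, which had a log2 fold change of 0.18 ± 0.13 (SE, adjusted p = 0.441). Cd68, a lysosomal glycoprotein, had 32.4, 32.2 and 32.0 CPM in S34F and 19.9, 7.54 and 7.46 CPM in WT, with no overlap between the groups (log2 fold change 1.47 ± 0.35, adjusted p = 0.0695). Csf1r, the receptor of macrophage colony-stimulating factor, had 16.0, 34.9 and 4.84 CPM in S34F and 10.3, 4.54 and 5.68 CPM in WT (adjusted p = 0.217). Cd14, a lipopolysaccharide co-receptor, had 22.8, 11.8 and 2.93 CPM in S34F and 6.57, 1.18 and 1.19 CPM in WT (adjusted p = 0.193). None of the 4 markers with enough counts to test passed, C1qa and C1qb had 0 counts in every library, and the part of these markers in the fall of Casp2 was not tested.

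The gene table does not resolve transcripts, which bears on Casp2 because its annotation is rich in them. GENCODE M21 lists 10 transcripts of Casp2, of which 1 is protein coding, 1 is marked for nonsense-mediated decay, 3 retain an intron and 5 are of other types. Casp4 has 7 transcripts, with 2 coding, 2 marked for decay and 3 that retain an intron. Casp8 has 4, all coding, and Casp1 has 1. Counts are summed over all forms of a gene here, so the use of each form and of each splice site was not measured, and whether a shift between forms has a part in the gene totals was not tested.

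Cradd (ENSMUSG00000045867, chromosome 10, 95174746 to 95324133, minus strand), the adaptor that carries a CARD for Casp2 and a death domain for Pidd1, was low in both groups. It had 72, 99 and 70 counts in S34F and 70, 79 and 90 counts in WT, which is 4.06, 5.15 and 4.18 CPM in S34F and 4.26, 4.65 and 4.87 CPM in WT. The groups overlapped throughout, and the log2 fold change was -0.04 ± 0.22 (SE, adjusted p = 0.937). Its 95% interval ran from -0.55 to 0.47 and overlapped that of Casp2, -0.89 to -0.31. Whether the 2 genes changed differently was not tested in this fit. Pidd1, the third part of the PIDDosome, had 34.9, 41.8 and 31.1 CPM in S34F and 43.3, 32.0 and 35.7 CPM in WT, with a log2 fold change of -0.04 ± 0.16 (adjusted p = 0.899).

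Neither gene of the apoptosome core passed the test. Casp9 (ENSMUSG00000028914, chromosome 4, 141793612 to 141815976, plus strand), the initiator that Apaf1 activates, had 34.6, 35.7 and 35.1 CPM in S34F and 33.9, 38.5 and 35.4 CPM in WT. All S34F libraries lay within the range of the WT libraries. The log2 fold change was -0.03 ± 0.11 (SE, adjusted p = 0.892), with a 95% interval of -0.29 to 0.22, the narrowest of the 7. Apaf1 (ENSMUSG00000019979, chromosome 10, 90989311 to 91082770, minus strand) had 85.8, 89.5 and 75.1 CPM in S34F and 84.5, 99.0 and 107 CPM in WT, so the groups overlapped at WT replicate 1. Its log2 fold change was -0.21 ± 0.13 (SE, adjusted p = 0.357), and the interval, -0.50 to 0.07, overlapped that of Casp2. Cycs, cytochrome c, was uneven within both groups, at 128, 71.2 and 95.7 CPM in S34F and 103, 43.5 and 46.1 CPM in WT (log2 fold change 0.62 ± 0.34, adjusted p = 0.321).

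Casp8 (ENSMUSG00000026029, chromosome 1, 58795374 to 58847503, plus strand), the initiator below death receptors, was counted at 73.2, 68.9 and 74.5 CPM in S34F and at 76.3, 94.4 and 94.7 CPM in WT. The S34F libraries were close together and all below WT, but WT replicate 1 lay near them and apart from WT replicates 2 and 3. The log2 fold change was -0.29 ± 0.12 (SE) and did not pass (adjusted p = 0.197). The adjusted p was between 0.0521 and 0.529 when single libraries were left out. Gm20257, which shares sequence with Casp8, had 0.903, 1.56 and 1.37 CPM in S34F and 2.13, 2.47 and 2.54 CPM in WT, far below Casp8, and how reads in the shared runs were assigned is not known. The adaptor gene Fadd had a log2 fold change of -0.02 ± 0.14 and Cflar, which encodes the Casp8 homologue that restrains it and lies next to it on chromosome 1, of 0.08 ± 0.13 (adjusted p = 0.941 and 0.749).

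Casp1 and Casp4 lie 1562 bases apart on the plus strand of chromosome 9. Within S34F the libraries spanned a 1.38-fold range for Casp1 and a 2.43-fold range for Casp4. In each group both genes were highest in replicate 2 and lowest in replicate 1. Casp1 (ENSMUSG00000025888, 5298517 to 5307265), which matures interleukin-1 beta, had 45.8, 63.0 and 47.4 CPM in S34F, against 72.7, 77.1 and 76.4 CPM in WT. The WT libraries were tight, S34F replicate 2 was the highest of its group, and the groups did not overlap. Casp1 averaged 52.1 ± 9.51 CPM in S34F and 75.4 ± 2.32 CPM in WT (SD, n = 3 per group). The log2 fold change was -0.53 ± 0.14 (SE), with a 95% interval of -0.85 to -0.22, and it did not pass (adjusted p = 0.0857). Without S34F replicate 2 it was -0.69 and passed (adjusted p = 0.0363), as it did in DESeq2 (adjusted p = 0.0179), while with WT replicates 2 and 3 summed the adjusted p was 0.273.

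Casp4 (ENSMUSG00000033538, 5308828 to 5336783), the mouse gene long known as caspase-11 and the sensor of cytosolic lipopolysaccharide, had 60.7, 148 and 92.6 CPM in S34F and 99.8, 112 and 111 CPM in WT. The S34F group held both the lowest and the highest of the 6 libraries, S34F replicates 1 and 2, a 2.43-fold range, while the WT libraries spanned 99.8 to 112 CPM. Among tested genes that averaged 10 CPM or more, 1.48% had a wider range within S34F. The log2 fold change was -0.10 ± 0.27 (SE, adjusted p = 0.858). It was 0.152 when S34F replicate 1 was left out and -0.49 when S34F replicate 2 was (adjusted p = 0.739 and 0.167), so its sign rests on single libraries. S34F replicate 2 was also the highest library in the summed macrophage markers given above, whose part in the values of Casp1 and Casp4 was not tested.

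Casp6 (ENSMUSG00000027997, chromosome 3, 129901425 to 129914103, plus strand) was nearly silent in this line. It had 5, 9 and 7 counts in S34F and 8, 5 and 6 counts in WT, between 0.282 and 0.487 CPM, and did not pass the count filter. Summed, 21 counts in S34F stood against 19 in WT, a ratio of 1.04 once library sizes are allowed for, with an exact 95% interval of 0.534 to 2.05 for counting error only. A change within that interval was not detectable at this depth.

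**Figure D3:**
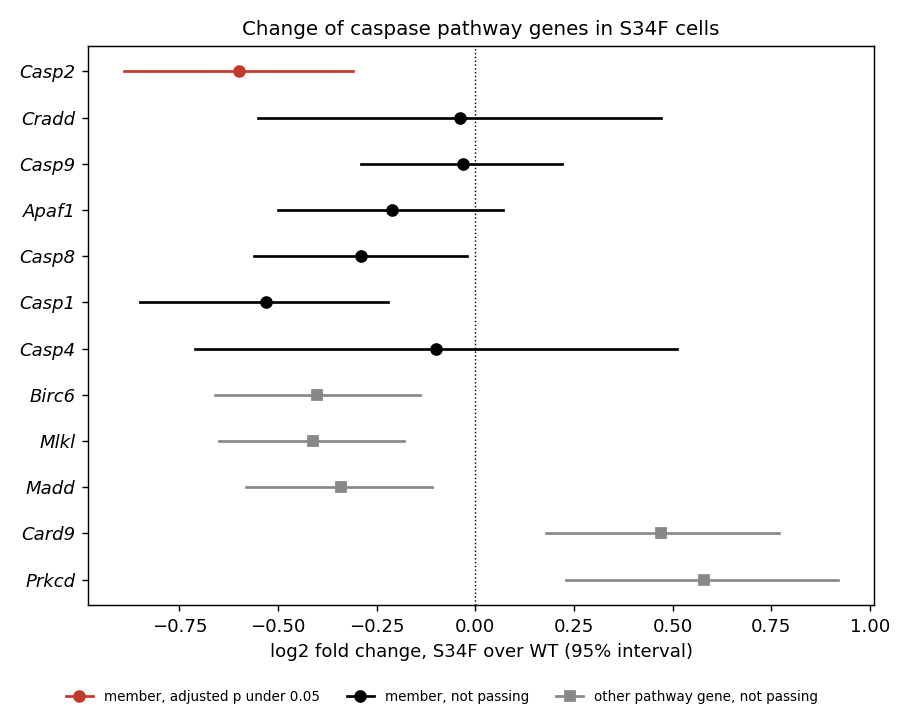
Log2 fold change of S34F over WT with its 95% interval from the edgeR fit, for the 7 tested genes (circles) and 5 other genes of the caspase pathways (squares), with red for an adjusted p under 0.05. Casp2 is the one red point, Casp1 lies close to it at -0.53, and Casp9 and Cradd lie near 0.

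Levels of different genes were compared per kilobase of exon, as CPM per kb averaged over the 6 libraries. Casp1 was the highest at 42.6 CPM per kb, Casp4 and Casp8 followed at 28.0 and 27.8, and Casp2 came next at 16.6. Casp4 and Casp8 could not be told apart, since the libraries of Casp4 ranged from 16.4 to 39.8 CPM per kb and those of Casp8 from 23.8 to 32.7. Apaf1 at 9.98 and Casp9 at 6.84 CPM per kb did not overlap in any library, and Cradd at 0.951 and Casp6 at 0.0679 were lowest. The order of the first 4 depends on the length used. Over the length of the longest coding transcript, an alternative chosen after the values were seen, Casp4 had 72.4, Casp1 42.6, Casp2 33.3 and Casp8 31.1 CPM per kb. That transcript covers 1.435 of 3.710 kb of annotated exon in Casp4 and 3.529 of 7.057 kb in Casp2.

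A ratio of counts within a library does not depend on scaling between libraries. The 7 ratios given here were chosen after the fall of Casp2 was seen, and with 3 libraries per group an exact permutation test cannot go below p = 0.10, so they describe the libraries and no difference between members is drawn from them. Casp2 had 2.58, 2.92 and 2.47 counts per Casp9 count in S34F, against 3.65, 3.99 and 4.16 in WT. Per Apaf1 count it had 1.04, 1.16 and 1.16 in S34F and 1.47, 1.55 and 1.38 in WT. Neither pair of groups overlapped, and the same held per Cradd count (20.2 to 22.0 in S34F, 29.1 to 32.9 in WT) and per Casp8 count (1.17 to 1.51 in S34F, 1.56 to 1.62 in WT). For these 4 ratios the exact permutation test gave p = 0.10, two-sided, or 0.18 after Benjamini-Hochberg adjustment over 7. Casp2 alone was already separate between the groups, as were 13.1% of all genes tested in this direction. Its ratio to a gene with little change can be separate for that reason. How often such ratios are separate over all genes was not determined.

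Per Casp1 count, Casp2 had 1.95, 1.65 and 1.83 counts in S34F and 1.70, 1.99 and 1.93 in WT. These groups overlapped (exact permutation p = 0.60, two-sided), with a difference of -0.05 in the mean log2 ratio. Casp2 and Casp1 lie on different chromosomes, and their values moved alike over the 6 libraries, with a root mean square difference of 0.101 in centred log2 CPM. Of 8420 genes that averaged 10 CPM or more, 66 were closer to Casp2 than Casp1 was. The Casp2 to Casp4 ratio overlapped between groups as well, at 1.47, 0.705 and 0.939 in S34F and 1.24, 1.37 and 1.33 in WT (exact permutation p = 0.40). The Casp1 to Casp4 ratio ranged from 0.427 to 0.755 in S34F and from 0.687 to 0.729 in WT (exact permutation p = 0.40).

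**Figure D4:**
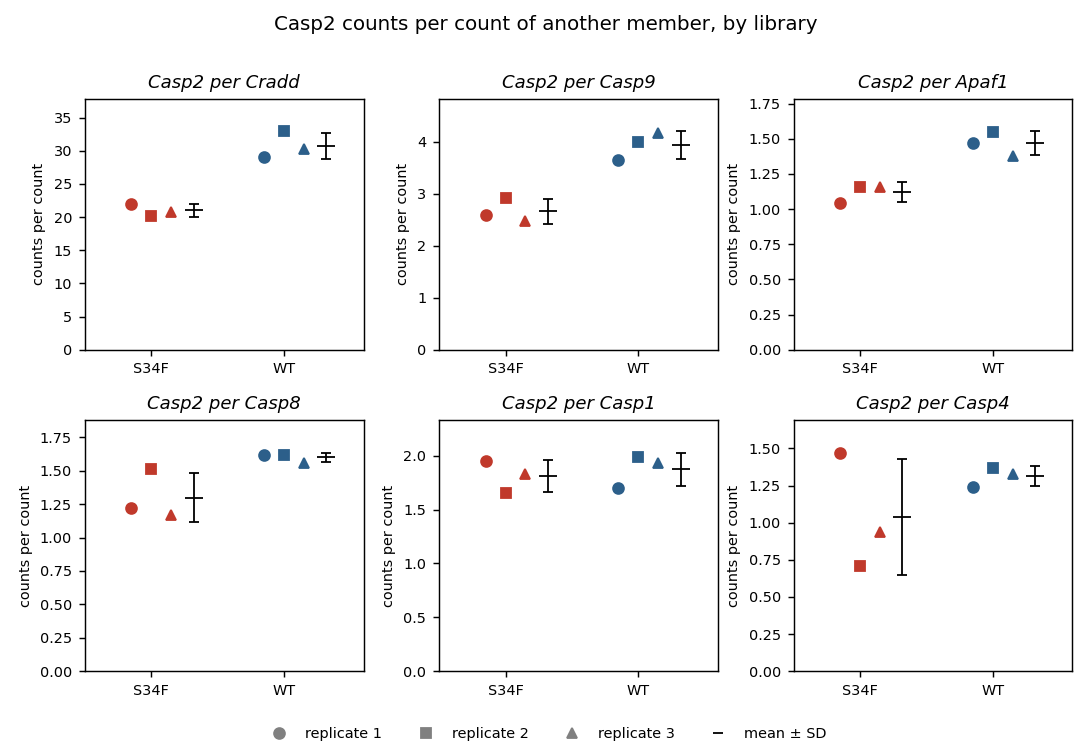
Counts of Casp2 per count of 6 other members in each library, S34F left and WT right, with 1 symbol per replicate and black bars for mean ± SD (n = 3 per group), axes from 0. The groups are separate for Cradd, Casp9, Apaf1 and Casp8, and overlap for Casp1 and Casp4. Casp2 CPM alone is also separate between the groups.

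The genes whose libraries followed Casp2 most closely were St7, Sesn1, Eps15, Oxsm and Rfc2, with root mean square differences of 0.0368 to 0.0589 in centred log2 CPM over 6 libraries. Sesn1 encodes a stress-induced sestrin, Eps15 an endocytic adaptor, Oxsm an enzyme of mitochondrial fatty acid synthesis and Rfc2 a subunit of the clamp loader. St7, the nearest, had 34.6, 42.5 and 34.3 CPM in S34F and averaged 54.6 ± 4.72 CPM in WT (SD, n = 3). The 5 genes had log2 fold changes of -0.51 to -0.56 and did not pass (adjusted p between 0.0655 and 0.0872). All 5 passed when WT replicate 1 was left out (adjusted p between 0.0282 and 0.0363) and in DESeq2. Those settings called 8.51% and 9.04% of all genes. None of the 5 passed with WT replicates 2 and 3 summed (adjusted p between 0.242 and 0.312), where 0.145% of all genes were called. Their likeness to Casp2 over the same libraries chose them, so that their fold changes are close to that of Casp2 follows from the choice.

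Among 68 further genes of these pathways, 58 could be tested and edgeR called 0, where 2.18% of all genes were called. At an unadjusted p under 0.05 there were 13 of the 58, with 6 higher and 7 lower, where 22.0% of all genes reached it. DESeq2 called 5 of the 58 (Birc6, Mlkl, Madd, Card9 and Prkcd), where it called 9.04% of all genes, and limma-voom called 0. Both counts are near these shares. The median log2 fold change of the 58 was 0.05. Casp12, next to Casp4 on chromosome 9, had 0, 4 and 0 counts in S34F and 12, 3 and 3 counts in WT. Casp14 had 0 counts in every library, which allows up to 0.157 to 0.182 CPM by library totals alone.

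No list of partners held a called gene. Of 11 tested apoptosome partners and inhibitors of apoptosis, Birc6, a giant ubiquitin ligase that restrains caspases, had the smallest p (log2 fold change -0.40 ± 0.11, adjusted p = 0.102), and Xiap, the direct inhibitor of Casp9, had -0.17 ± 0.14 (adjusted p = 0.501). Of 12 death receptor genes it was Mlkl, the pore-forming effector of necroptosis (-0.41 ± 0.10, adjusted p = 0.0777). Of 4 genes listed around the PIDDosome it was Madd (-0.34 ± 0.10, adjusted p = 0.109). Madd is a death domain protein that binds a TNF receptor and is not among the PIDDosome parts named above. Of 17 substrates and executioners it was Prkcd, a protein kinase C that caspases cut, at 0.58 ± 0.15 (adjusted p = 0.0873). The medians of these 4 lists were -0.10, 0.07, 0.08 and 0.05.

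In the inflammasome list, which supplies the partners of Casp1 and Casp4, 12 of 16 genes were tested and the median log2 fold change was 0.09. Card9, an adaptor of fungal sensing, had the smallest p (0.47 ± 0.13, adjusted p = 0.0925; 0.60 and adjusted p = 0.0377 with S34F replicate 2 left out), with 137 to 181 CPM in S34F and 117 to 122 CPM in WT. Pycard, the ASC adaptor that joins most sensors to Casp1, was almost absent, with 13, 10 and 9 counts in S34F and 6, 6 and 12 counts in WT. Il18, a substrate of Casp1, had 0 counts in every library but WT replicate 2, which had 2. Il1b, which encodes the interleukin-1 beta precursor that Casp1 cuts, was uneven in both groups, at 18.8, 63.3 and 2.81 CPM in S34F and 31.9, 3.53 and 3.84 CPM in WT (log2 fold change 1.12 ± 1.20, adjusted p = 0.628). The sensor gene Nlrp3 was uneven, at 23.1, 38.8 and 8.18 CPM in S34F and 18.7, 4.01 and 4.22 CPM in WT (adjusted p = 0.310). Gsdmd, the gasdermin that both caspases cut, had 34.2, 33.1 and 28.9 CPM in S34F and 30.7, 33.6 and 37.7 CPM in WT (log2 fold change -0.08 ± 0.13, adjusted p = 0.752). Pidd1, Cycs, Xiap, Fadd, Cflar, Casp12, Casp14, Pycard, Il18, Il1b, Nlrp3 and Gsdmd are named as direct partners, substrates or relatives and were chosen after their values were seen.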

How the data were processed

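Messenger RNA of 32D cells was sequenced with a directional kit, per the labels' protocols. The table deposited by the authors holds raw counts of reads for each Ensembl gene in 6 libraries. The submitters' processing notes name HISAT2, featureCounts and mm10. Not given in the sources used here are their versions, how strand and multiply mapped reads were handled, and which annotation was counted. Columns were matched to samples by name. Gene models, lengths and GC content came from GENCODE M21, the same build.

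The main test was that of edgeR 4.0.16 in R 4.3.3 (TMM, filterByExpr, robust glmQLFit and glmQLFTest, two-sided) with the genotype as the design, and p-values were adjusted over all 13444 tested genes. Each SE is the log2 fold change over the root of F, and 95% intervals use the degrees of freedom of the fit. CPM values are TMM-normalised, except the worth of 1 count and the limit for Casp14, which use library totals alone. Transcript runs of 50 bases were compared on both strands. Alternatives used DESeq2 1.42.0, limma-voom 3.58.1, RLE factors, library totals, no filter on counts, a filter at 1 CPM (reached in 3 libraries), a replicate block, WT replicates 2 and 3 summed, loess offsets for GC content (span 0.5) and each library left out. The procedure was tested on simulated counts.

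The members, lists and several alternatives were chosen with earlier results of these data known. Named genes were the members, called genes of each pathway list or else the gene with the smallest p, and the 5 genes closest to the member with the smallest p (mean of at least 10 CPM). Figures were drawn with matplotlib 3.10.9. Septin4 was matched by its reference symbol. Some genes of the lists are not reported here. Intervals on counts cover counting error only.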

Additional observations from a re-analysis of the deposited data

How the results depend on the processing

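Called genes numbered 293 (2.18% of those tested), and 763 without a count filter (3.12%) and 1216 in DESeq2 (9.04%). They numbered 159 with the GC trend removed (1.18%) and 20 with WT replicates 2 and 3 summed (0.145%). Library totals gave 228 (1.70%) and limma-voom 271 (2.02%). Leaving out 1 library gave 19 to 1177 (0.138% to 8.51%). The counts of members and pathway genes below stand beside these shares. The number of members called was 1 as reported, 0 with library totals, the GC trend removed, limma-voom or WT replicates 2 and 3 summed, 2 without a count filter and in DESeq2 (Casp2 and Casp1), and 0 to 2 with 1 library left out. For Casp2 the log2 fold change was -0.63 with library totals, -0.57 with the GC trend removed, -0.60 in limma-voom and -0.56 with WT replicates 2 and 3 summed, each above the threshold, and -0.68 to -0.54 with 1 library left out. Pathway genes called were 0 as reported, 2 without a count filter, 5 in DESeq2 and 0 to 3 with 1 library left out. The cause of these differences was not tested.

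Signs turned for values near 0. With 1 library left out, Casp4 ranged from -0.49 to 0.152, Casp9 from -0.07 to 0.013, Cradd from -0.15 to 0.016 and the log2 difference in the Casp2 to Casp1 ratio from -0.12 to 0.01. Casp4 had 0.152 without S34F replicate 1 and 0.109 with the GC trend removed. Casp9 had 0.013 without WT replicate 2. Cradd had 0.016, 0.006 and 0.003 without S34F replicate 1, S34F replicate 3 and WT replicate 3, and 0.004 with the GC trend removed. The log2 difference in the Casp2 to Casp1 ratio was 0.01 without S34F replicate 2. Over the longest coding transcript, levels were 33.3 (Casp2), 72.4 (Casp4), 0.260 (Casp6), 9.12 (Casp9), 13.7 (Apaf1) and 2.73 (Cradd) CPM per kb. Casp8 and Apaf1 kept their direction under all 15 alternatives and passed under none.

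The replicate numbers of the titles were tested as a block. Deviations of same-numbered libraries correlated at 0.332, 0.159 and 0.072, and those of differently numbered libraries at -0.259 to 0.153. The highest value was that of S34F replicate 1 with WT replicate 1. The main fit did not take the numbers as pairs, and these correlations do not settle whether they are. S34F replicate 3 correlated about equally with WT replicates 2 and 3 (0.080 and 0.072), which are nearly alike. With the replicate block 1418 genes were called (10.5% of those tested), among them 2 members and 8 pathway genes. The members were Casp2 and Casp1 (edgeR adjusted p = 0.00846 and 0.0194). Depth limits Casp6 and Cradd, with at most 9 and 99 counts in a library.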
